A study of Mus musculus with 6 samples.

Results

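Egr1, Egr2, Egr3, Nr4a1, Nr4a2, Nr4a3, Ier2, Ier3 and Ier5 are early response genes, taken by symbol from the platform annotation as 9 of the 19505 genes measured. Where a gene had several probe sets, the one with the highest mean over all 6 arrays was used. The cells were RAW264.7, an established mouse macrophage line, and every sample was total RNA taken after 3 days of culture. The control cells grew on pristine polyetheretherketone (PEEK), an implant polymer (3 samples), and the others on PEEK with a modified surface (3 samples). What the modification was is not stated in the labels. No genotype, stimulus or drug differs between the groups in the labels, and all samples come from 1 cell line. The labels do not say whether the triplicates were independent experiments, so the p-values reflect the spread among these samples alone, and that spread may be technical.

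Early response genes are transcribed within minutes of a stimulus such as a growth factor, a cytokine or a microbial product, from factors already present in the cell. Kinase cascades act on serum response factor with its ETS partners and on CREB at their promoters, and NF-kB drives some of them as well. Their messages are usually short-lived, so a level at one late time is a snapshot of a steady culture and not the early wave itself. In macrophages, Egr factors take part in differentiation, and the Nr4a orphan receptors in restraint of inflammatory transcription.

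The array values were log2 signals, on which a step of 1 is a 2-fold difference. A gene was counted as changed at an adjusted p under 0.05 in limma, a linear model across all genes with Benjamini-Hochberg adjustment. A signal of 3.72 was taken as background; it is the 95th percentile over 1412 genes for olfactory or vomeronasal receptors. Array medians over genes lay between 4.98 and 5.10. Correlations over genes were 0.991 to 0.995 between arrays of a surface and 0.985 to 0.988 between surfaces. Of 10 macrophage marker genes measured, 9 lay above background on both surfaces, the exception being Mertk. Of these 10 markers, 3 were higher on modified PEEK (Adgre1 by 0.54, Cybb by 0.35 and Mertk by 0.36) and 2 fell (Fcgr1 by 0.85 and Itgam by 0.59). The share of all genes that passed was 10.4%. Signals of 9 of the 10 markers did not overlap between surfaces, 5 higher and 4 lower on modified PEEK, beside 28.8% of all genes. The summed log2 signal of these markers, in which rises and falls offset each other, was 97.4 to 97.9 on pristine and 97.2 to 97.6 on modified PEEK. Their part in the changes of the 9 early genes was not tested. Of 22 markers of fibroblasts, epithelium, T cells, B cells and neutrophils, 14 lay below background on both surfaces and 0 passed in limma, with 2 at an unadjusted p under 0.05. Among all 19505 genes, 6276 lay below background on both surfaces and 10.4% passed. Markers above background on pristine PEEK included Col1a1 (mean 5.80) and Col1a2 (4.53) of fibroblasts and Elane (4.52) of neutrophils. Whether other cell types were present was not tested. Precision is limited by the number of arrays.

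Promoter sequence was matched for 6 of the 9 genes in RefSeq (GRCm38.p6): Egr2, Nr4a1, Nr4a2, Nr4a3, Ier3 and Ier5. Egr3 and Ier2 had no entry, and windows on the chromosome of Egr1 were left out, so these 3 genes were not searched. From the matched genes, 3 windows of 250 bases before the transcription start are shown. They are those of Ier3, whose signal fell, and of Nr4a1 and Nr4a2, whose signals did not pass the test. They lie at chr17:35821463-35821712 on the plus strand for Ier3, at chr15:101266596-101266845 on the plus strand for Nr4a1 and at chr2:57124004-57124253 on the minus strand for Nr4a2. Capitals mark a match to the NF-kB consensus in Ier3. In the Nr4a windows they mark the CRE core TGACG and the EGR site GCGNGGGCG on either strand, and in Nr4a2 also a TATAAA match.
Ier3: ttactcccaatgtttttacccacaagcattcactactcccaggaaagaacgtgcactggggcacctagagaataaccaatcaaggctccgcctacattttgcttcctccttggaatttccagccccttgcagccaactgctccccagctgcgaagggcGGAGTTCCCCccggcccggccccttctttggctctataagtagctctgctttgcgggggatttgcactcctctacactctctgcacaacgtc
Nr4a1: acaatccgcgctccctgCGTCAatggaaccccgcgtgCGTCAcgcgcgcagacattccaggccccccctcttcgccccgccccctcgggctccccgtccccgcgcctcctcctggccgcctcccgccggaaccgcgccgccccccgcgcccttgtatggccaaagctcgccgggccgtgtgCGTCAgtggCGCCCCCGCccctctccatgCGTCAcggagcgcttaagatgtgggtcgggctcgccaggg
Nr4a2: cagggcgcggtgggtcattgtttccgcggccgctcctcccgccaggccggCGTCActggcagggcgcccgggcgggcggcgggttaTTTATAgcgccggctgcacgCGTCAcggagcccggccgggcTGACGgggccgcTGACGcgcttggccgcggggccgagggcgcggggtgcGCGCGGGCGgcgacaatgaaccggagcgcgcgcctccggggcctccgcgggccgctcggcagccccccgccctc

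Of the 10 motifs searched on both strands, the Ier3 window held the NF-kB consensus and the GC box GGGCGG. The NF-kB match began 92 bases before the start and overlapped the GC box match, which began at 96. The NF-kB consensus was found in 3.90% of all 32851 promoter windows of this length, and in none of the other matched windows of these genes. The windows of Nr4a1, Nr4a2 and Nr4a3 each held 4 CRE cores, the motif read by CREB. At least 4 were found in 0.137% of all windows and at least 1 in 17.8%; the threshold of 4 was set after the matches were seen. Nr4a1 and Nr4a2 also held 1 EGR site each, found in 4.70% of windows and overlapping a GC box (32.7% of windows) in both. The CArG box, the motif of serum response factor, was in 4 of the 5 Egr2 windows, several of which overlap one another, against 1.47% of all windows. The ETS core CCGGAA (12.0% of windows) was in the Nr4a1 window and in 1 Egr2 window, and TATAAA (12.4%) in that of Nr4a2. The full CRE TGACGTCA (1.55%, a case of the core), the AP-1 site TGANTCA (6.75%) and the Nr4a site AAAGGTCA (1.34%) were in none of the matched windows. Of the 10 motifs, the Ier5 window held only the GC box. A match of letters is a description of the sequence and not evidence that a factor was bound. Any part of NF-kB in the fall of Ier3 was not tested.

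Of the 9 early genes, 1 fell on modified PEEK and 8 did not pass. Ier3 went down 2.27-fold, while the 3 Egr genes, the 3 Nr4a genes, Ier2 and Ier5 had no change that passed the test. The share of the 9 genes that passed, 11.1%, was close to the 10.4% of all genes that passed. The median change was -0.07 for the 9 genes and 0.01 for all genes. Signals overlapped between the surfaces for each gene but Ier3, and 28.8% of all genes did not overlap. With the probe set used for each gene, 8 of the 9 genes lay above background on all 6 arrays, the exception being Nr4a3. For Egr3 that probe set is annotated as unmapped, and the mapped one lay close to background.

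**Figure D1:**
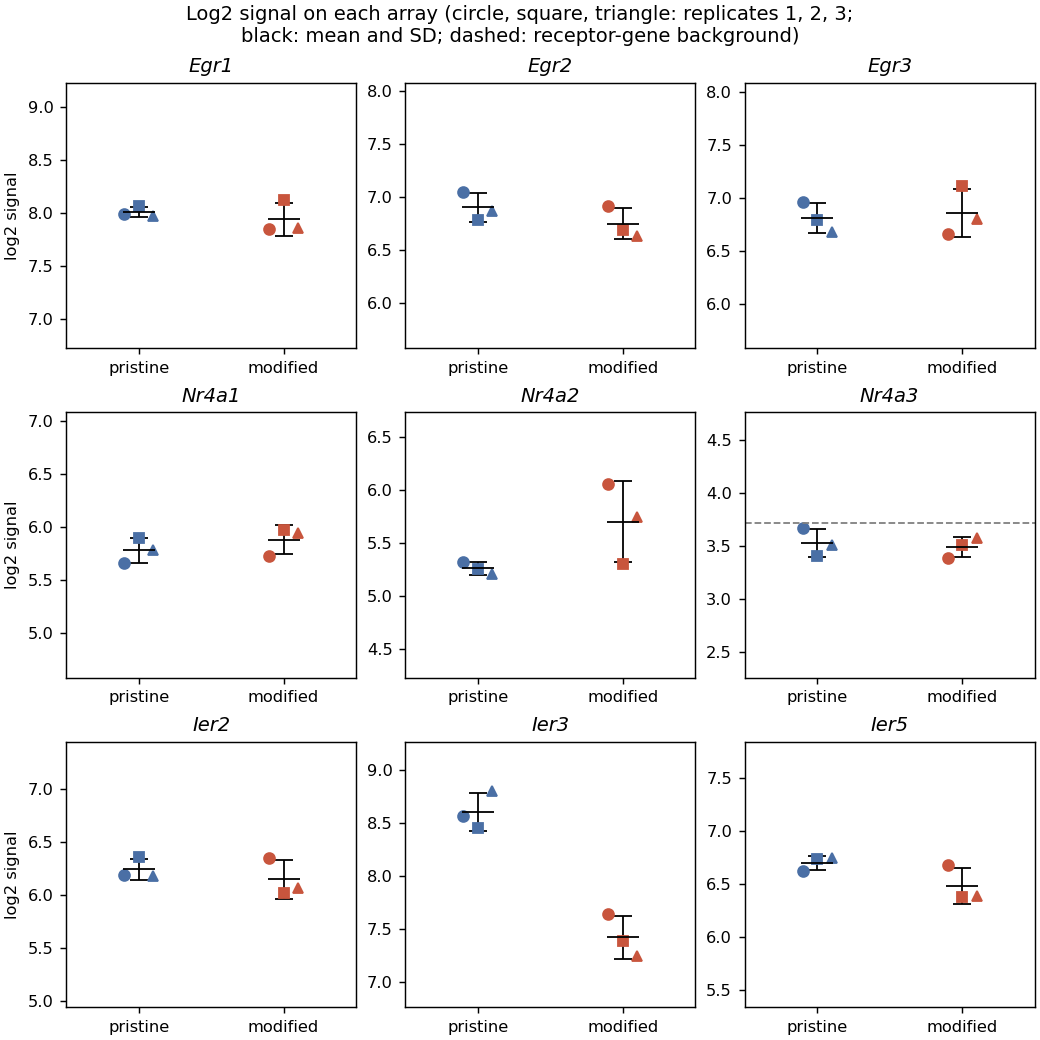
Log2 signal of each of the 9 genes on each array, with pristine PEEK in blue and modified PEEK in red, 3 arrays each; markers give the replicate number, black bars the mean and SD, and the dashed line the background of 3.72 where it falls in the panel. Every panel spans the same height of log2 signal; the surfaces are apart for Ier3 and overlap in the other panels, and Nr4a3 lies below the dashed line.

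The Egr genes encode zinc-finger transcription factors that bind GC-rich sites. Egr1, the family member induced most widely by growth factors, read 7.99, 8.06 and 7.97 on the 3 pristine arrays and 7.85, 8.12 and 7.85 on the 3 modified arrays. Modified replicate 2 was the highest of all 6 and the other modified arrays were the lowest, so the surfaces overlapped. The change of Egr1 was -0.07 ± 0.11 (SE; limma adjusted p = 0.781). Its 95% interval, from -0.31 to 0.18, holds falls of up to 1.24-fold and rises of up to 1.13-fold.

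Egr2, which acts in macrophage differentiation and in T cell tolerance, read 7.05, 6.79 and 6.87 on pristine PEEK and 6.92, 6.70 and 6.64 on modified PEEK. The 2 lowest arrays were modified ones, but modified replicate 1 lay above 2 of the pristine arrays. The change was -0.15 ± 0.12 (SE; limma adjusted p = 0.511), with a 95% interval from -0.42 to 0.11. Egr3, a close relative of Egr2, read 6.96, 6.79 and 6.68 on pristine PEEK and 6.66, 7.11 and 6.80 on modified PEEK. Modified replicate 2 was the highest of the 6 and modified replicate 1 the lowest. The change of Egr3 was 0.05 ± 0.14 (SE; limma adjusted p = 0.890), with a 95% interval from -0.27 to 0.37.

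Egr3 had 3 probe sets, and they differed in signal. The one used is annotated as unmapped. The mapped Egr3 probe set read 3.35 to 3.59 on pristine PEEK and 3.47 to 4.08 on modified PEEK, close to background. The remaining unmapped probe set read 5.82 to 6.06 and 5.68 to 6.26. With p adjusted over all probe sets in limma, these 2 changed by 0.31 ± 0.16 (SE; adjusted p = 0.322) and 0.0019 ± 0.15 (SE; adjusted p = 0.996), so none of the 3 passed. Which probe set reports the Egr3 message was not tested.

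The Nr4a genes encode nuclear receptors without a known classical ligand, whose activity is set largely by how much of them is made. Nr4a1 (Nur77) read 5.66, 5.89 and 5.78 on pristine PEEK and 5.72, 5.97 and 5.94 on modified PEEK. The 2 highest arrays were modified ones, and modified replicate 1 lay inside the pristine range. The change was 0.10 ± 0.11 (SE; limma adjusted p = 0.675), with a 95% interval from -0.16 to 0.36.

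Nr4a2 (Nurr1) had the largest rise in value of the 9 genes without passing the test. It read 5.32, 5.25 and 5.21 on pristine PEEK and 6.06, 5.30 and 5.74 on modified PEEK. The pristine arrays lay close together, 2 modified arrays lay above them, and modified replicate 2 lay inside the pristine range. The change was 0.44 ± 0.18 (SE; limma adjusted p = 0.187; higher than every pristine array on 2 of 3 modified arrays), or 1.36-fold. Its 95% interval, from 0.03 to 0.85, is not adjusted for the number of genes tested. The SD was 0.06 on pristine and 0.38 on modified PEEK (n = 3 each), and the pooled spread of Nr4a2 was at the 87.6th percentile of all genes.

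The outcome for Nr4a2 depended on modified replicate 2 and on the scaling. Without modified replicate 2 the change was 0.64 and passed in limma (adjusted p = 0.0235). In the other 5 fits that left out 1 array it lay between 0.26 and 0.47, with adjusted p between 0.277 and 0.369. Scaled to the poly-A spikes, control RNAs added to each sample, the change was 0.69 and also passed (adjusted p = 0.0301). Over the 18 alternatives the adjusted p ran from 0.0235 to 0.369.

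Nr4a3 (Nor1) lay below background on all 6 arrays. It read 3.67, 3.41 and 3.51 on pristine PEEK and 3.38, 3.51 and 3.58 on modified PEEK, with the surfaces overlapping throughout. No fold is given for Nr4a3 because both surfaces were below background; its difference was -0.04 ± 0.11 (SE; limma adjusted p = 0.888).

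Ier2 and Ier5 are related nuclear proteins, and Ier5 is known to act on heat shock factor 1. Ier2 read 6.19, 6.36 and 6.19 on pristine PEEK and 6.36, 6.02 and 6.07 on modified PEEK. The 2 lowest arrays were modified ones, while modified replicate 1 was close to the highest pristine array. The change of Ier2 was -0.09 ± 0.12 (SE; limma adjusted p = 0.717), with a 95% interval from -0.37 to 0.18.

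Ier5 read 6.62, 6.74 and 6.74 on pristine PEEK and 6.68, 6.38 and 6.38 on modified PEEK. Modified replicates 2 and 3 lay below all pristine arrays and modified replicate 1 lay among them. The change was -0.22 ± 0.11 (SE; limma adjusted p = 0.302), and its 95% interval from -0.48 to 0.04 holds falls of up to 1.39-fold. Among the 9 heat shock factor 1 target genes measured of 11 listed, 0 passed in limma under any setting run. In limma 0 had an unadjusted p under 0.05, and changes ran from -0.08 to 0.14. Of all genes, 10.4% passed, and 0 of 9 lies near that share.

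Ier3, also called IEX-1, is an early gene of NF-kB and growth factor signalling whose product modulates cell survival. It read 8.57, 8.46 and 8.81 on pristine PEEK and 7.65, 7.39 and 7.25 on modified PEEK. All 3 modified arrays lay below all 3 pristine arrays, as they did for 14.5% of all genes. The mean went from 8.61 ± 0.18 to 7.43 ± 0.20 (SD, n = 3). The fall was 1.18 ± 0.14 on the log2 scale (SE; limma adjusted p = 0.00131; lower on 3 of 3 arrays), with a 95% interval of the change from -1.50 to -0.86. Falls that passed the test were found for 5.15% of all genes and rises for 5.24%. In RNA from whole cultures, fewer cells of a type and less RNA per cell cannot be told apart.

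The fall of Ier3 passed under all 18 alternatives run, at changes between -1.29 and -0.94 and adjusted p of at most 0.00959. The smallest fall was that scaled to the poly-A spikes. The 95% interval of Ier3 lay wholly below those of the other 8 genes, of which the lowest bound was -0.48, for Ier5. Taken array by array, the difference between the log2 signals of Ier3 and each of the other 8 was lower on every modified than on every pristine array. The change of Ier3 minus theirs ran from -0.96 (Ier5) to -1.62 (Nr4a2). Ier3 was singled out here because it fell, so these differences restate its fall and carry no test.

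**Figure D2:**
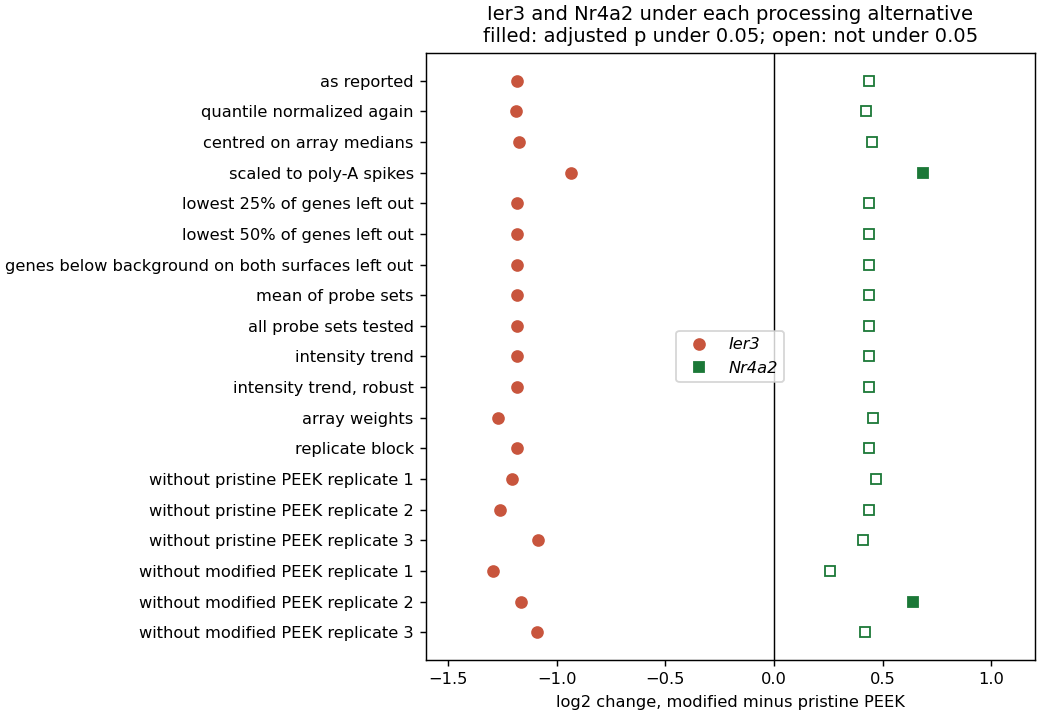
Log2 change of Ier3 (circles) and Nr4a2 (squares) as reported and under each of the 18 processing alternatives; filled symbols have an adjusted p under 0.05 in limma and open ones do not. Ier3 is filled and between -1.29 and -0.94 in every row below the first; Nr4a2 is filled in 2 rows, scaled to the poly-A spikes (0.69) and without modified PEEK replicate 2 (0.64).

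Genes were ranked by how closely their signal followed Ier3 over the 6 arrays, among 11713 named genes above background on every array. The closest were Acod1, the itaconate-producing enzyme gene (Pearson r = 0.997), B3galnt2 (0.997) and Clcn5, a chloride/proton exchanger gene (0.997). Their changes were -1.69, -0.48 and -0.58. The 6 arrays form 2 separate clusters, and 617 genes had an r over 0.95 to Ier3, so these values describe mainly the step between surfaces and carry no test.

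Arrays varied more on modified than on pristine PEEK for 8 of the 9 genes, the exception being Nr4a3. The same held for 62.8% of all genes. Modified replicate 2 gave the highest value of its surface for Egr1, Egr3 and Nr4a1 and the lowest for Nr4a2, Ier2 and Ier5. It was an extreme for 6 of the 9 genes, as it was for 69.3% of all genes. The sign of 5 changes that did not pass (Egr1, Egr2, Nr4a3, Ier2 and Ier5) turned when arrays were scaled to the spikes. That scaling moved the median change of all genes from 0.01 to 0.26, and Ier3, at -0.94, then had a change of -1.19 relative to it.

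None of the relatives and partners of the 9 genes passed. Of 7 measured out of 8 listed, 0 passed in limma under any setting run and 0 had an unadjusted p under 0.05. Of all genes, 10.4% passed, and 0 of 7 lies near that share. Nab1 and Nab2, which encode corepressors that bind Egr proteins, changed by 0.02 ± 0.10 and 0.05 ± 0.10 (SE). Ier3ip1, an endoplasmic reticulum protein gene named for its link to Ier3, changed by 0.05 ± 0.09 (SE). The list ran from -0.11 to 0.19, with a median of 0.02.

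Of 19 measured genes out of 25 listed for the kinases and factors that act upstream of early genes, 2 were higher and 1 lower, with a median change of -0.13. That is 15.8% passing, beside 10.4% of all genes, and 5.26% lower, beside 5.15%. Mef2c, a MADS-box factor of the myeloid lineage, rose by 0.80 ± 0.09 and Rps6ka5, encoding the CREB and histone kinase MSK1, by 0.56 ± 0.10 (SE; limma adjusted p = 0.00108 and 0.0107). Map2k2, encoding the ERK kinase MEK2, fell by 0.43 ± 0.10 (SE; limma adjusted p = 0.0290). The call for Map2k2 was lost in 8 of the 18 alternatives, among them those without pristine replicate 1, 2 or 3 or modified replicate 2 or 3 (adjusted p up to 0.0993). Scaled to the spikes, the change of Map2k2 was -0.19 (adjusted p = 0.439). The number lower was 5 with an intensity trend and 2 without modified replicate 1.

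Other immediate early genes gave 19 lower and 3 higher of 48, or 45.8% passing, beside 10.4% of all genes. Their median change was -0.26, and 39.6% were lower, beside 5.15% of all genes. This list was drawn up with earlier results of these data known, and the difference between its share and that of the 9 genes was not tested. Plk2, a polo-like kinase gene (-2.72), Ptgs2, encoding cyclooxygenase 2 (-2.51), and Rgs1, a regulator of G protein signalling (-1.90), had the largest falls. Ppp1r15a, the eIF2 phosphatase subunit gene (-1.49), Myc (-1.49) and the AP-1 gene Fosl1 (-1.03) came next. Of the 48 genes, 5 had a larger fall than Ier3. Among the 26 that did not pass, those at the highest signal were Mcl1 (0.18), Btg1 (0.11) and Nfkbia (0.15). The 3 that rose, named after their values were seen, were Fos (0.97), Zfp36l1 (0.85) and Zfp36l2 (0.34). Fos is, like Egr1, a classical target of serum response factor. The 95% interval of Fos, from 0.77 to 1.17, did not overlap that of Egr1. Because Fos was picked by its rise, this difference carries no test. Zfp36l2 lost its call when any 1 array was left out (adjusted p from 0.0773 to 0.163). The number lower was 12 without pristine replicate 2 and 8 when scaled to the spikes.

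**Figure D3:**
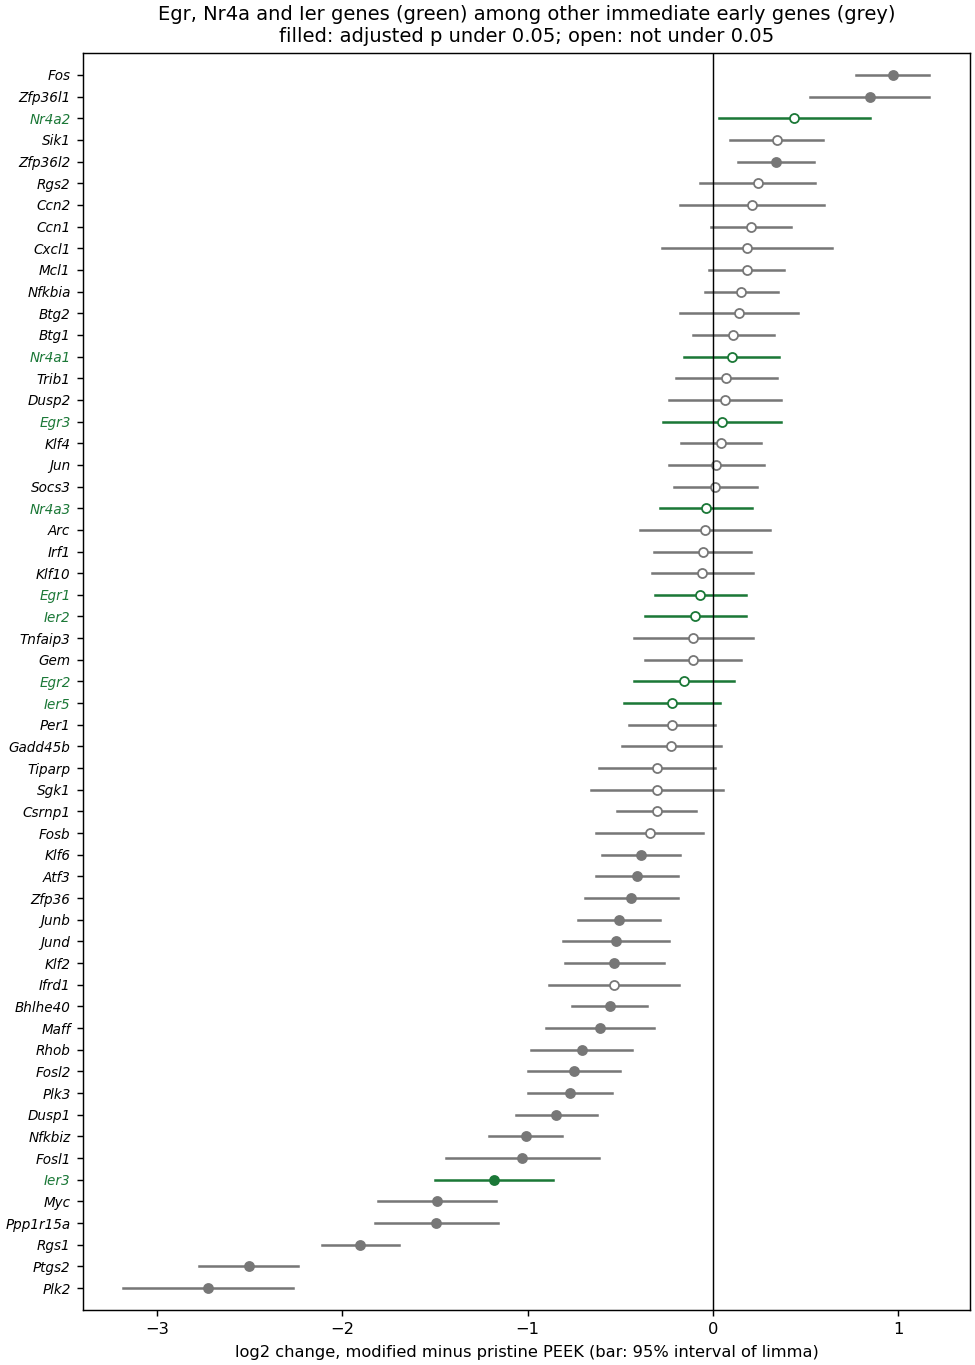
Log2 change (point) and 95% interval of limma (bar) for the 9 Egr, Nr4a and Ier genes in green and 48 other immediate early genes in grey; filled points have an adjusted p under 0.05. Ier3 at -1.18 lies among the largest falls, and the other 8 green genes lie between -0.22 and 0.44 with open points.

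Feedback genes of MAP kinase signalling, which early gene stimuli also induce, numbered 13, of which 4 fell and 0 rose. Their median change was -0.34, and 30.8% were lower, beside 5.15% of all genes. The dual-specificity phosphatase genes Dusp4 (-1.57), Dusp5 (-1.09), Dusp16 (-0.98) and Dusp8 (-0.53) fell. Dusp8 lost its call without pristine replicate 2 or 3 or modified replicate 1 or 3 (adjusted p up to 0.108) and scaled to the spikes (0.297). Of 10 genes for ligands and receptors that feed early gene induction in macrophages, 3 were lower and 0 higher. The median was -0.12, and 30.0% were lower, beside 5.15% of all genes. The 3 were Csf1, the macrophage growth factor gene (-1.96), Csf2ra, a receptor chain gene for its relative GM-CSF (-0.65), and Tnf (-0.55). Scaled to the spikes, Csf2ra (adjusted p = 0.144) and Tnf (adjusted p = 0.225) did not pass. With an intensity trend, 3 of the 10 ligand and receptor genes and 1 of the 13 feedback genes passed as higher. The same numbers passed as higher with the dimmer 50% of genes, or those below background on both surfaces, left out. Leaving out the lowest 25% of genes gave 1 higher in each list. Spike scaling and array weights each gave 1 higher ligand or receptor gene. As reported, Tlr2 (0.34), Tlr4 (0.28) and Csf1r (0.26) had positive changes and did not pass.

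Of 7 osteoclast marker genes, which this macrophage line can express, 4 fell (Acp5, Dcstamp, Atp6v0d2 and Mmp9) and 0 rose, with a median change of -0.84, beside 5.15% of all genes lower and a median of 0.01. Ocstamp, a gene that acts in cell fusion, changed by 0.33 (95% interval 0.04 to 0.63) and Ctsk, the cathepsin K gene, by -0.29. Neither passed in limma (adjusted p = 0.163 and 0.425). The summed log2 signal of the 7 was 43.4 to 43.8 on pristine and 37.3 to 38.5 on modified PEEK, and Calcr, the calcitonin receptor gene, lay below background on both. Their part in the fall of Ier3 was not tested.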

How the data were processed

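The authors deposited 1 log2 signal for each probe set and array. RMA appears in the submitters' processing notes, with no version or role given. That the scale is log2 was read from the values (0.941 to 12.4, near-equal quantiles on all arrays). Of 29129 features, 6923 were array controls, 19572 named 1 gene, 0 named several and 2634 were unnamed; 55 genes had several probe sets. The comparison used limma 3.58.1 under R 4.3.3 (lmFit, then eBayes, no trend, two-sided, 6 arrays, 4 residual and 4.09 prior degrees of freedom), fitted on all genes. Changes are modified minus pristine PEEK, and array compression can make them smaller than the true ratio. No filter on dim probes was used.

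The members and lists were chosen with earlier results of these data known. Named genes were the 9 members whatever their result, up to 6 passing genes of each list, by size of change, and up to 3 others at the highest signal, and the 3 most like each member that passed; not all picked are named. The promoter build is GRCm38.p6; for the arrays, no build was given in the sources used here. The fit was tested on simulated data before use, with 200 changed genes in each of 5 runs. At an adjusted p under 0.05 in limma it recovered 26.3% of changes of 0.5, 76.1% of 1 and 98.5% of 2. Of its calls, 4.37% were false. The spikes were 24 poly-A probe sets, whose mean signal differed by -0.25 between surfaces (exact permutation test over arrays, p = 0.2). With 3 arrays a surface the smallest p of that test is 0.1, so it cannot decide whether the spikes differ. Hybridisation spikes and antigenomic background probe sets differed by -0.17 and -0.07. Whether the shift of the poly-A spikes reflects the amount of sample RNA was not tested. Alternatives were other scalings, filters, probe set rules and variance models, the replicate number as a block, and each array left out in turn.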

Additional observations from a re-analysis of the deposited data

How the results depend on the processing

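Among the 9 early genes, the call of Ier3 held in all 18 alternatives, and the number lower stayed at 1. The number higher became 1 (Nr4a2) when scaled to the poly-A spikes and in 1 of the fits that left out an array (range 0 to 1). Scaled to the spikes, the changes of Egr1 (0.18), Egr2 (0.0928), Nr4a3 (0.21), Ier2 (0.15) and Ier5 (0.0263) turned positive. With array weights those of Nr4a3 (0.0036) and Nab1 (-0.0296) changed sign. Leaving out 1 array gave changes from -0.0770 to 0.15 for Egr3, -0.0994 to 0.0327 for Nr4a3 and -0.0647 to 0.0811 for Nab1, ranges that hold 0; the cause was not tested. All genes passing numbered 1575 higher and 290 lower scaled to the spikes, 1586 and 1719 with an intensity trend, 1580 and 1702 with a robust trend, and 1522 lower with the dimmer 50% of genes left out.

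Without 1 array, 594 to 903 genes were higher and 548 to 1048 lower. The labels do not say that replicate numbers pair the samples, and deviations of same-numbered arrays correlated at -0.17, -0.16 and 0.07. With 3 arrays a surface, these values cannot exclude a shared day or batch. With the replicate block 646 genes were higher and 622 lower, and Ier3 still passed (adjusted p = 0.00927). The intervals of the 8 early genes that did not pass give sizes of change left possible by 3 arrays a surface. They hold for the deposited scaling only. Scaled to the spikes, the change of Egr1 was 0.1787, just above the upper bound of its interval, 0.1765. For Nr4a3 the signal below background leaves no fold. That gene was left out with the dimmer 50% of genes and with the genes below background on both surfaces.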
